A study of Mus musculus with 12 samples.

Results

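The 9 genes described here are the activity-dependent repressors and stress genes that are linked to denervation of muscle: the class IIa histone deacetylase genes Hdac4, Hdac5 and Hdac9, the corepressor gene Dach2, the growth-arrest genes Gadd45a, Gadd45b and Gadd45g, the AMP deaminase gene Ampd3 and the Z-disc gene Igfn1. They were found by symbol, and all 9 are among the 24528 genes of the deposited table. Expression was measured by RNA sequencing of bulk gastrocnemius, a calf muscle, from 12 male mice aged 4 months. The 6 WT mice had the genotype Ank2f/f, with floxed alleles of the ankyrin-B gene and no Cre. The 6 KO mice were Ank2f/f; HSA-Cre+, so both groups carried the floxed alleles and only KO carried the driver, which is built on a skeletal actin promoter and acts in muscle fibres. Littermates of both genotypes shared cages, and each library is a different animal.

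In innervated muscle, nerve activity keeps the acetylcholine receptor genes and the myogenic factor myogenin low outside the synapse. Class IIa histone deacetylases have little catalytic activity of their own; they bind MEF2 factors and repress MEF2 targets, and calcium-dependent kinases export them from the nucleus. After loss of the nerve, Hdac4 accumulates and represses Dach2, a repressor of myogenin, and the myogenin gene and its receptor targets rise. Gadd45a is induced on the same path and acts in the nucleus of the fibre during atrophy. Gadd45b and Gadd45g are its close relatives, and all encode small proteins that bind the kinase MTK1 and cell-cycle regulators. Whether the nerve supply differed between these mice was not measured.

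In KO muscle Gadd45a was higher and Gadd45g was lower, while Hdac4, Hdac5, Hdac9, Gadd45b, Ampd3 and Igfn1 did not pass the test. Dach2 was lower at the limit of detection, but it had too few reads to enter that test. Values are on the log2 scale of the deposited table, and changes are KO minus WT. A call means a Benjamini-Hochberg adjusted p at or under 0.05 in a limma fit across all 12227 genes whose estimated reads reached 10 in 6 or more libraries. Of the 9 genes, 8 passed that filter. Among them 1 rose and 1 fell, where 3.12% and 3.08% of all tested genes were called in those directions. The groups did not overlap in those same 2 genes, against 2.47% of all tested genes, with 1.27% having all KO libraries above WT and 1.2% all below. At an unadjusted p of 0.05, 3 of the 8 passed, and so did 3179 of all tested genes (26.0%). The median change was 0.03 over the 8 genes and -0.01 over all tested genes.

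**Figure D1:**
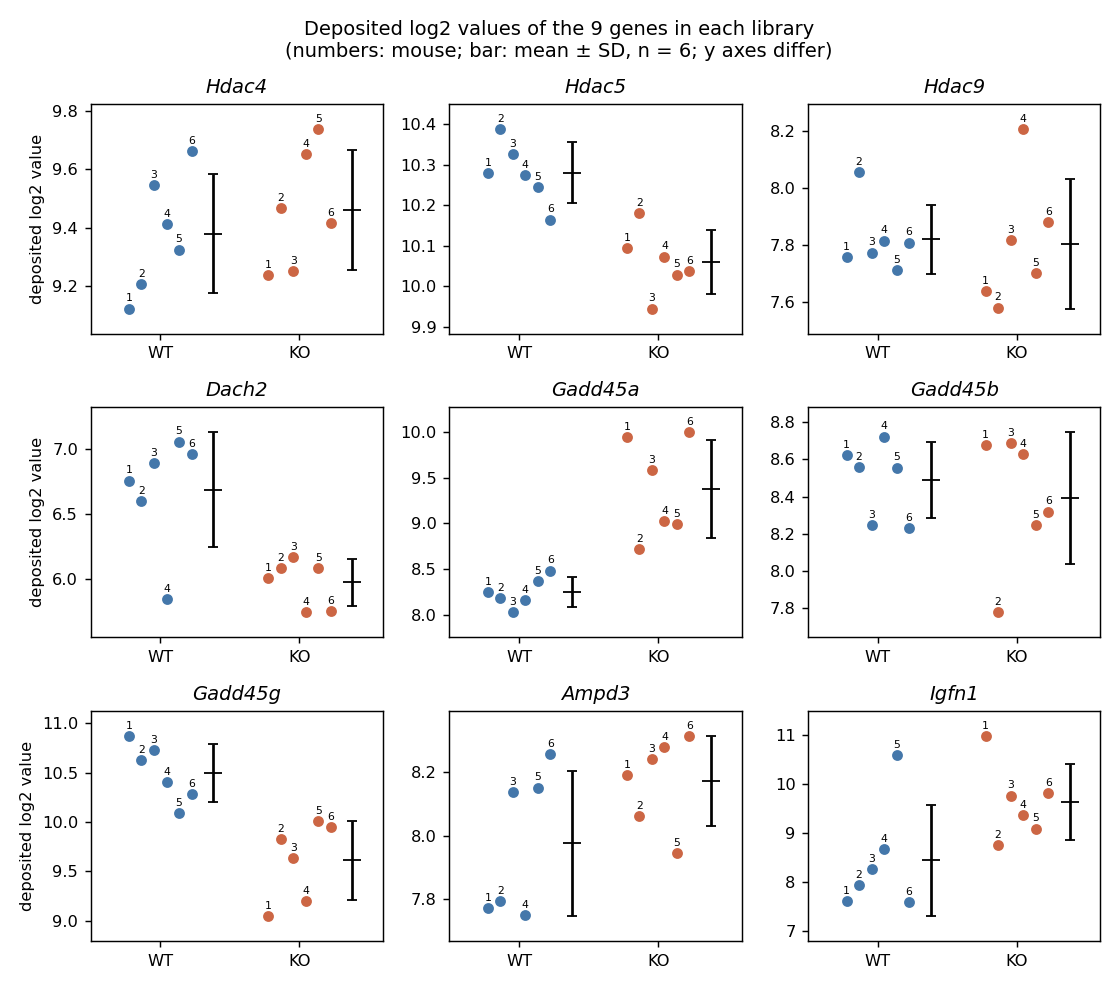
Deposited log2 value (y axis, scales differ by panel) of each of the 9 genes in the 6 WT libraries (blue) and 6 KO libraries (orange), with the number of the mouse above each point and the mean ± SD as a bar. All KO points of Gadd45a lie above the WT points, all KO points of Gadd45g lie below them, and Dach2 is low in KO and in WT 4.

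Estimated depth was 12359908 to 16973636 reads in WT and 13499748 to 18719092 in KO. The reads were estimated from the deposited values and are approximate. The targeted gene Ank2 stood between 8.40 and 9.22 in WT and between 7.54 and 8.03 in KO, a change of -1.15 (limma adjusted p = 0.000882), so its values follow the labels. KO 2 showed the smallest changes of the KO group in Gadd45a, Igfn1 and the receptor gene Chrna1. Without it 1517 genes were called, against 757 with it, so values without KO 2 are given beside the results. Its Ank2 value, 7.63, lay within the range of the KO group. As KO 2 was picked by its expression values, a call gained without it is not support for a change. Omitting a single library from among KO 1, KO 3, KO 6 and all WT but WT 4 left 194 to 367 calls. Markers of muscle fibres made up 193779 to 227336 of each 1000000 estimated reads (RPM) in WT and 200679 to 219778 in KO. In bulk tissue a change in the number of cells of a type and a change of RNA per cell cannot be told apart.

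The stretches of 250 bases before the RefSeq start (GRCm38.p6, the build mm10) are shown for the Gadd45 family, whose members moved apart, for Dach2, and for Hdac5, the one deacetylase gene with a MEF2 match. Capitals mark E-boxes (CANNTG, read the same on both strands), the motif of myogenic factors and many other helix-loop-helix proteins, and in Hdac5 also the match to a MEF2 site near its end.
Gadd45a (chr6:67037408-67037657, minus strand): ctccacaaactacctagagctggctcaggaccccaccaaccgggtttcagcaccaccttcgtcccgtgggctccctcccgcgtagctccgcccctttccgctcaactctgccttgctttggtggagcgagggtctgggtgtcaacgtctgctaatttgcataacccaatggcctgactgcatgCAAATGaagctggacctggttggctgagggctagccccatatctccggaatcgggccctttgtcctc
Gadd45b (chr10:80929841-80930090, plus strand): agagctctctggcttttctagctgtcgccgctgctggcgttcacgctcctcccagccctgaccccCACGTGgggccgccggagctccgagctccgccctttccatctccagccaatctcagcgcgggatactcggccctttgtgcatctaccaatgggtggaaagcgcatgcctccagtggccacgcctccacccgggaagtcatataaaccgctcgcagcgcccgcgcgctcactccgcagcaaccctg
Gadd45g (chr13:51846425-51846674, plus strand): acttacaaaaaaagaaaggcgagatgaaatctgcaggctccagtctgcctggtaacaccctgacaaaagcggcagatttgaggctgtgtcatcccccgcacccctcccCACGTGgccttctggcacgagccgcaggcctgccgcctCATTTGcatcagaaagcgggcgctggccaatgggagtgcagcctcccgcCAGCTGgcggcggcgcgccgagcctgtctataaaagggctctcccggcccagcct
Dach2 (chrX:113297260-113297509, plus strand): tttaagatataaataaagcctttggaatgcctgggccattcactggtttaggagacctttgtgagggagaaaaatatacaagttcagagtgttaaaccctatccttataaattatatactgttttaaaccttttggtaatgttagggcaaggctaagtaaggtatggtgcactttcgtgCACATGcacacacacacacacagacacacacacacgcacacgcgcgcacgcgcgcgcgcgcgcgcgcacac
Hdac5 (chr11:102230173-102230422, minus strand): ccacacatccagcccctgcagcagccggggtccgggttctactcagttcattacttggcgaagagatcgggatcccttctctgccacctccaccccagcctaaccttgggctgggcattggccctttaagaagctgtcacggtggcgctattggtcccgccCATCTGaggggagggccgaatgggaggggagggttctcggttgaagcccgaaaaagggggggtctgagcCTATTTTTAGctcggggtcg

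Gadd45a held 1 E-box, 67 bases before the start, and Gadd45b held 1, 185 bases before it. Gadd45g held 3, of which the nearest to the start, 55 bases before it, is CAGCTG. An E-box occurs in 66.2% of all 32851 promoter windows of this length, and CAGCTG in 13.0%. A MEF2 site occurs in 2.92% of the windows, and of the 9 genes Hdac5 had a match. The first start of Dach2 held 1 E-box, just before a run of alternating C and A, and the second start held none. All 9 symbols had at least 1 window, and these matches describe letters and not binding.

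Gadd45a, the family member induced in denervated and wasting muscle, rose in KO. Its values were 8.25, 8.18, 8.03, 8.16, 8.37 and 8.48 in WT 1 to WT 6, and 9.94, 8.72, 9.58, 9.02, 9.00 and 9.99 in KO 1 to KO 6. Every KO library lay above every WT library, with KO 1 and KO 6 highest and KO 2 lowest among KO. WT averaged 8.25 ± 0.16 and KO 9.38 ± 0.54 (SD, n = 6 mice a group). The change was 1.13 with an SE of 0.21 (limma, adjusted p = 0.0138), and the exact two-sided permutation p was 0.00216, the smallest that 6 against 6 allow. Put back to scaled reads, KO stood at 280% ± 117 of the WT mean, and KO libraries ran from 153% to 424%. Between 146 and 1055 estimated reads stood behind each value. The call held without any 1 library (adjusted p from 0.00098 to 0.041), and the change was 1.26 without KO 2. The gene spans chr6:67035096-67037457 (mm10, minus strand), and 19.1% of its exon bases also belong to E230016M11Rik on the other strand. The libraries carry no strand mark, so reads of that stretch cannot be assigned to either gene.

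Gadd45g, the most abundant family member in these muscles, fell. Its values were 10.87, 10.62, 10.73, 10.40, 10.09 and 10.28 in WT 1 to WT 6, and 9.05, 9.83, 9.64, 9.20, 10.01 and 9.95 in KO 1 to KO 6. Every KO library lay below every WT library, but the gap was narrow, since WT 5 stood at 10.09 and KO 5 at 10.01. WT averaged 10.50 ± 0.29 and KO 9.61 ± 0.40 (SD, n = 6 mice a group). The change was -0.89 with an SE of 0.18 (limma, adjusted p = 0.0164; exact two-sided permutation p = 0.00216). KO stood at 51.9% ± 15.1 of the WT mean on scaled reads, with 523 to 1556 estimated reads per library. The call held without any 1 library (adjusted p from 0.00835 to 0.0452), and the change was -0.93 without KO 2. The gene spans chr13:51846678-51848468 (mm10, plus strand), where no other annotated gene overlaps it.

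Gadd45b, an early-response member of the family, gave no call. Its values were 8.62, 8.56, 8.25, 8.72, 8.56 and 8.23 in WT 1 to WT 6, and 8.68, 7.78, 8.69, 8.63, 8.25 and 8.32 in KO 1 to KO 6. The groups overlapped over nearly their whole range, and KO 2 was the lowest library. The difference was -0.10 (SE 0.14, 95% interval -0.41 to 0.21, limma adjusted p = 0.693), and without KO 2 it was 0.02. The gene spans chr10:80930073-80932204 (mm10, plus strand).

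Set per length, the make-up of the family shifted between the groups. Gadd45g held 79.3% ± 4.58 of the summed estimated reads per kilobase and 1000000 reads (RPKM) in WT, and in KO it held 54.6% ± 13.6 (SD, n = 6 mice a group). Gadd45a held 8.71% ± 2.58 in WT and 30.6% ± 10.3 in KO, and the ranges, 6.19% to 12.0% and 19.5% to 46.6%, did not overlap. Gadd45b held 11.9% ± 2.76 and 14.8% ± 5.44. In KO 1 Gadd45a was the largest share, whereas in the other KO libraries Gadd45g was. The summed level of the family was 97.3 ± 16.7 in WT and 74.9 ± 13.9 in KO, and those ranges overlapped (80.8 to 124 and 57.5 to 95.7). These shares restate the values above and were not tested again.

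**Figure D2:**
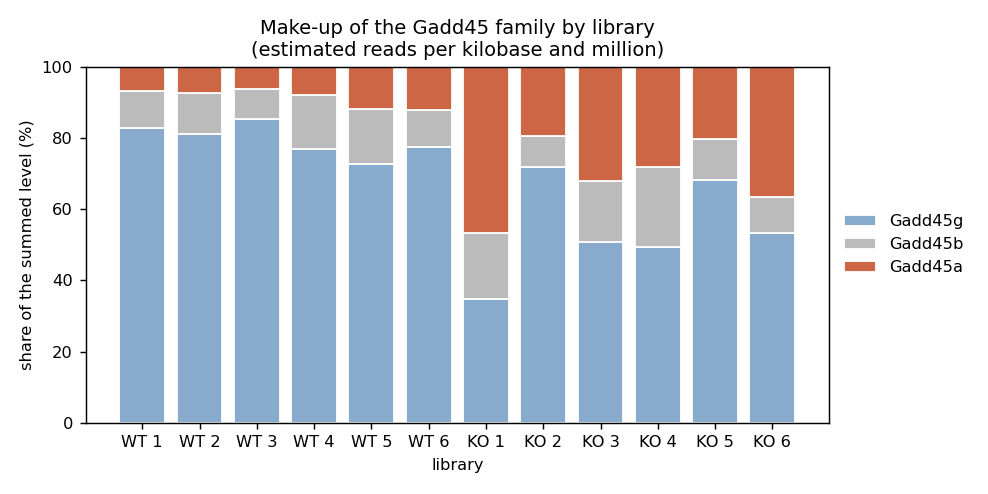
Share of Gadd45g (blue), Gadd45b (grey) and Gadd45a (orange) in the summed level of the family, in percent (y axis), for each of the 12 libraries (x axis), from estimated RPKM. The Gadd45a share lies at 6.19% to 12.0% in WT and at 19.5% to 46.6% in KO.

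Dach2, the corepressor that restrains myogenin in innervated muscle, was near the floor of the table and did not pass the filter, since 5 libraries had 10 estimated reads or more. Its values were 6.76, 6.60, 6.89, 5.84, 7.05 and 6.96 in WT 1 to WT 6, and 6.01, 6.09, 6.17, 5.75, 6.09 and 5.75 in KO 1 to KO 6, above a floor of 5.57. In estimated reads, WT libraries other than WT 4 had 24.7 to 48.4, WT 4 had 1.79, and KO libraries had 0.87 to 9.03. WT 4 thus lay inside the KO range, and the other WT libraries lay above all KO libraries. WT averaged 6.68 ± 0.44 and KO 5.97 ± 0.18 (SD, n = 6 each), a difference of -0.71 (exact two-sided permutation p = 0.0108, not adjusted over genes). On scaled reads KO stood at 13.0% ± 9.05 of the WT mean. Fitted with all 18054 genes above the floor and no filter, Dach2 was lower in KO (limma adjusted p = 0.0256), where 1.93% of genes were called lower. On the log2 scale of estimated RPM with a pseudocount of 0.1 the difference was -2.39 (limma adjusted p = 0.0482). The difference ran from -0.88 without WT 4 to -0.63 without WT 5, and the exact permutation p from 0.00216 to 0.0195 over the 12 omissions. WT 4 was the lowest WT library in this gene, so its omission widens the difference by construction. The gene spans chrX:113297510-113836386 (mm10, plus strand).

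WT 4 was also the WT library with the least Ank2, at 8.40. Slow-fibre markers, all 8 of which had negative estimates, summed to 381 to 4003 estimated RPM in WT and 72.1 to 1036 in KO. None of the 8 was called by limma or voom, and 6 passed an unadjusted p of 0.05, against 26.0% of all tested genes. WT 4 stood at 671 in these markers, between WT 5 at 634 and WT 3 at 1932. Among WT libraries, WT 4 had the highest muscle fibre markers (227336 estimated RPM) and adipocyte markers (12.9). It had the lowest endothelial (224), smooth muscle and pericyte (349), fibro-adipogenic (218) and macrophage (8.40) markers of WT. Schwann cell markers overlapped between the groups, at 41.6 to 154 in WT and 16.4 to 325 in KO, with KO 1 highest. Satellite cell markers summed to 30.1 to 33.7 in WT and 23.2 to 28.9 in KO, without overlap. That sum was led by Cdh15, the 1 of 4 tested genes that fell (-0.37, limma adjusted p = 0.0341), while Pax7 gave 0.06, Vcam1 0.09 and Myf5 -0.0021, and the list median was 0.03. The part of these cell types in the changes of Dach2 and the Gadd45 genes was not tested.

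Hdac5 was the deacetylase gene closest to a call. This class IIa enzyme is known as a repressor that muscle activity drives out of the nucleus. Its values were 10.28, 10.39, 10.33, 10.27, 10.25 and 10.16 in WT 1 to WT 6, and 10.09, 10.18, 9.95, 10.07, 10.03 and 10.04 in KO 1 to KO 6. The groups touched only where KO 2 at 10.18 passed WT 6 at 10.16. WT averaged 10.28 ± 0.08 and KO 10.06 ± 0.08 (SD, n = 6 each), a difference of -0.22 (SE 0.07, 95% interval -0.36 to -0.08). It missed the threshold over all genes (limma adjusted p = 0.058), and its exact permutation p of 0.00433 is not adjusted. It passed without KO 2 (-0.24, adjusted p = 0.031) and with weights for library quality (-0.23, adjusted p = 0.0349). KO 2 was the KO library nearest to WT in this gene, so its omission widens the difference by construction. On scaled reads KO stood at 84.8% ± 5.04 of the WT mean. Hdac5 spans chr11:102194432-102230166 (mm10, minus strand).

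Hdac4, the deacetylase whose protein builds up in denervated fibres, did not differ beyond the spread between mice. Its values were 9.12, 9.21, 9.55, 9.41, 9.33 and 9.66 in WT 1 to WT 6, and 9.24, 9.47, 9.25, 9.65, 9.74 and 9.42 in KO 1 to KO 6. KO 5 was the highest and WT 1 the lowest library, and the groups overlapped widely. The difference was 0.08 (SE 0.11, 95% interval -0.14 to 0.30, limma adjusted p = 0.656). Hdac4 spans chr1:91928779-92195699 (mm10, minus strand), and 22.4% of its exon bases are shared with Gm26720 on the other strand. Protein level and location, on which these enzymes are known to be controlled, were not measured.

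Hdac9, which in muscle is known for a short form without the catalytic domain, gave -0.02 (SE 0.10, 95% interval -0.22 to 0.19, limma adjusted p = 0.934). Its values were 7.76, 8.06, 7.77, 7.81, 7.71 and 7.81 in WT 1 to WT 6, and 7.64, 7.58, 7.82, 8.21, 7.70 and 7.88 in KO 1 to KO 6. The highest library was KO 4 and the lowest KO 2, so the KO libraries spanned the WT range on both sides. The direction changed sign with library weights, with voom and without any 1 of WT 2, KO 1, KO 2 and KO 5. Hdac9 spans chr12:34047580-34917095 (mm10, minus strand). Per length, the levels of the 3 deacetylase genes in WT were 8.66 ± 0.53 for Hdac5, 2.43 ± 0.44 for Hdac4 and 0.64 ± 0.08 for Hdac9 (estimated RPKM, SD, n = 6). The length of a gene counts all its annotated exons, so a gene present mainly as a short form is set too low.

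Ampd3 encodes the AMP deaminase isoform that is low in healthy adult muscle and induced by denervation. Its values were 7.77, 7.79, 8.14, 7.75, 8.15 and 8.25 in WT 1 to WT 6, and 8.19, 8.06, 8.24, 8.28, 7.95 and 8.31 in KO 1 to KO 6. WT 1, WT 2 and WT 4 were low, while WT 3, WT 5 and WT 6 stood within the KO range. The difference was 0.19 (SE 0.10, 95% interval -0.02 to 0.40, limma adjusted p = 0.225; exact two-sided permutation p = 0.104). On the scales of estimated reads it was up to 0.33 and passed in none. Ampd3 spans chr7:110768206-110812405 (mm10, plus strand), and 3.47% of its exon bases are shared with Rnf141.

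Igfn1 encodes a muscle protein with immunoglobulin and fibronectin domains at the Z-disc. Its values were 7.61, 7.94, 8.27, 8.68, 10.61 and 7.59 in WT 1 to WT 6, and 10.99, 8.76, 9.77, 9.37, 9.10 and 9.82 in KO 1 to KO 6. All KO libraries stood above the WT libraries other than WT 5, and WT 5 stood above every KO library except KO 1. WT averaged 8.45 ± 1.14 and KO 9.63 ± 0.78 (SD, n = 6 each), a difference of 1.19 that did not pass (SE 0.55, 95% interval -0.04 to 2.41, limma adjusted p = 0.206; exact two-sided permutation p = 0.0649). Without WT 5 the difference was 1.62 (adjusted p = 0.0568), and without KO 2 it was 1.36 (adjusted p = 0.155). In this gene WT 5 was the highest WT library and KO 2 the lowest KO library, so either omission widens the difference by construction. WT 5 also had the highest macrophage markers (34.4 estimated RPM, against 8.40 to 26.7 in the other 11 libraries), and their part in the Igfn1 value was not tested. Igfn1 spans chr1:135953578-136006342 (mm10, minus strand).

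**Figure D3:**
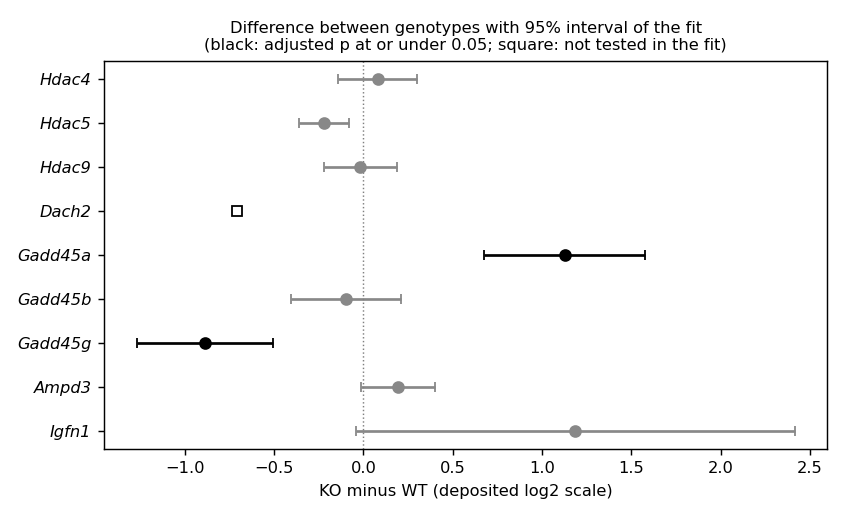
Difference KO minus WT on the deposited log2 scale (x axis) for each of the 9 genes (y axis), with the 95% interval of the limma fit; black points passed an adjusted p of 0.05, grey points did not, and the open square for Dach2 is a difference of means with no interval. Gadd45a lies at 1.13 and Gadd45g at -0.89 on opposite sides of 0.

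In order of level per length, WT muscle held most of Gadd45g, at 77.8 ± 17.3 estimated RPKM, followed by Gadd45b at 11.3 ± 1.73, Hdac5 at 8.66 ± 0.53 and Gadd45a at 8.21 ± 1.54. Hdac5 and Gadd45a did not differ beyond their spread in that order. Igfn1 followed at 2.98 ± 4.09, then Hdac4 at 2.43 ± 0.44 and Ampd3 at 2.00 ± 0.53, which lay within each other's spread. The rank of Igfn1 rests on WT 5, at 11.3, since the other WT libraries held 0.83 to 2.14, all below the mean of Hdac4. Hdac9 at 0.64 ± 0.08 and Dach2 at 0.24 ± 0.13 came last. In KO, Gadd45a was second at 23.4 ± 10.3, behind Gadd45g at 40.6 ± 11.0, and Dach2 stood at 0.030 ± 0.022 (SD, n = 6 for each level).

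In the list of myogenic factors and acetylcholine receptor genes, 3 receptor genes and Myf6 were higher in KO. Their link to Dach2 was not tested. Of 9 tested myogenic factors and receptor genes, 4 rose and 1 fell, where 3.12% of all tested genes rose and 3.08% fell, and the list median was 0.29 against -0.01 for all tested genes. At an unadjusted p of 0.05, 7 of the 9 passed, against 26.0% of all tested genes, and voom called 3. The list was chosen with earlier results of these data known, so this excess is not independent support. Chrna1, the alpha subunit, rose by 1.96 (SE 0.30, limma adjusted p = 0.00712), with WT libraries from 8.17 to 8.30 and KO libraries from 8.92 to 10.90. Chrnb1, the beta subunit, rose by 0.58 (adjusted p = 0.0265), Myf6, the myogenic factor MRF4 of mature fibres, by 0.41 (adjusted p = 0.0376), and Chrne, the adult epsilon subunit, by 0.37 (adjusted p = 0.0439). Musk, the kinase that clusters the receptor, fell by 0.62 (adjusted p = 0.0499). Chrna1 kept its call without any 1 library, whereas Chrnb1 lost it without 7 of the 12 (adjusted p up to 0.0678), namely KO 1, KO 3, KO 6 and all WT libraries but WT 4 and WT 6. Chrne lost it without KO 1, KO 3 or any WT library but WT 4 (up to 0.102), and Myf6 without KO 1, KO 3, KO 6 or any WT library but WT 4 (up to 0.0986). Musk lost it without any library but WT 4 and KO 2 (up to 0.123). Under the other settings Chrne lost its call in 3 and Musk in 4, both with an adjusted p of up to 0.0613.

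Myog, the myogenin gene that Dach2 represses, did not pass the test. It gave 0.20 (SE 0.12, 95% interval -0.06 to 0.45, limma adjusted p = 0.308, and up to 0.41 on the scales of estimated reads), with WT libraries from 6.97 to 7.48 and KO libraries from 6.89 in KO 2 to 7.74 in KO 6. Chrng, the fetal gamma subunit, did not pass the filter. It stood between 5.78 and 5.97 in WT, close to the floor, and KO libraries were at 7.09, 5.96, 6.83, 6.39, 6.47 and 6.48 in KO 1 to KO 6. All KO libraries except KO 2 lay above WT (exact two-sided permutation p = 0.00433, not adjusted; chosen after its values were seen).

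Within a genotype, Myog and Gadd45a ran together in KO, but no relation among the tested pairs passed correction. Over the 6 KO libraries Pearson's r was 0.86 (exact permutation p = 0.0125, adjusted p = 0.1 over 8 relations) and Spearman's rho 0.94 (exact permutation p = 0.0167, adjusted p = 0.133). Without the 2 libraries farthest from the median of Myog, r was 0.74. Over the 6 WT libraries r was 0.63 (exact permutation p = 0.175, adjusted p = 0.467) and rho 0.71 (exact permutation p = 0.136, adjusted p = 0.467), with r = 0.66 without the 2 farthest. Hdac4 with Gadd45a had r = -0.68 in KO (exact permutation p = 0.171, adjusted p = 0.467), rho -0.66 (exact permutation p = 0.175, adjusted p = 0.467) and r = -0.56 without the 2 farthest. In WT the same pair had r = 0.19 (exact permutation p = 0.721, adjusted p = 0.961), rho 0.029 (exact permutation p = 1, adjusted p = 1) and r = -0.60 without the 2 farthest. The planned pairs with Dach2 were left out because Dach2 did not pass the filter.

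Of 15 tested genes known to be induced in denervated muscle, 4 rose and 1 fell, with a median of 0.18, where 3.12% of all tested genes rose, 3.08% fell and the median was -0.01. At an unadjusted p of 0.05, 9 of the 15 passed, against 26.0% of all tested genes, and voom called 3. The list was chosen with earlier results of these data known, so this excess is not independent support. The cell-cycle inhibitor gene Cdkn1a rose by 0.90 (SE 0.20, limma adjusted p = 0.0286), the transcription factor gene Runx1 by 0.63 (adjusted p = 0.0403) and the adhesion molecule gene Ncam1 by 0.36 (adjusted p = 0.0231). The other rise was Myh8, the perinatal myosin gene (1.18, adjusted p = 0.0416). The gene that fell was Trim63, which encodes the ubiquitin ligase MuRF1 and is known to rise on denervation (-0.44, adjusted p = 0.0115), and all 6 KO libraries lay below WT. Of the 15 estimates 5 were negative, with Trim63 among them, and 10 were positive. Trim63 kept its call without any 1 library. Ncam1 lost it without WT 3, KO 1 or KO 3 (adjusted p up to 0.0617), Cdkn1a without WT 2, WT 5, WT 6, KO 1, KO 3 or KO 6 (up to 0.0752), Runx1 without any library but WT 4 and KO 2 (up to 0.0982), and Myh8 without any library but KO 2 (up to 0.0983). On the scales of estimated reads the log2 change was 1.07 to 1.49 for Runx1, 1.84 to 2.42 for Myh8 and up to 0.61 for Ncam1. Under the other settings Runx1 lost its call in 3 (up to 0.0742) and Myh8 in 2 (up to 0.108).

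Around the deacetylases, 1 kinase or phosphatase gene and 1 cofactor gene fell, and each list's count is to be read against the 6.19% of all tested genes that were called and the 26.0% that passed an unadjusted p of 0.05. Of 12 tested partners, including the MEF2 and 14-3-3 genes, none was called by limma or by voom, 3 passed an unadjusted p of 0.05, and the median was -0.05. The smallest p was that of Mef2a, a MEF2 factor gene (-0.31, limma adjusted p = 0.104). Of 14 tested kinase and phosphatase genes, 1 fell, the phosphatase subunit gene Ppp2cb (-0.26, adjusted p = 0.0491), and 13 of the 14 estimates were negative, with a median of -0.14. Ppp2cb lost its call without any library but KO 2 and KO 4 (adjusted p up to 0.115) and under 8 of 10 other settings (up to 0.0774). The 7 other deacetylase genes gave no call by limma or voom, 2 at an unadjusted p of 0.05, and a median of 0.03, with the smallest p for Hdac10 (0.18, adjusted p = 0.166, and up to 0.29 on the scales of estimated reads). Of 11 genes for Dach and Eya proteins and their sine oculis partners, 1 fell, Eya1, a cofactor of sine oculis homeobox proteins (-0.37, adjusted p = 0.0445), and the median was -0.11. Eya1 lost its call without any library but KO 2, KO 4 and KO 5 (adjusted p up to 0.102) and without both the variance trend and robust moderation (0.0525). Dach1, the paralog of Dach2, gave -0.14 (adjusted p = 0.196).

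Around the Gadd45 proteins, 1 of 14 tested partner genes fell and none rose, where 6.19% of all tested genes were called. At an unadjusted p of 0.05, 9 of the 14 passed, in both directions, against 26.0% of all tested genes, and voom called 2. The gene that fell was Mapk9, a JNK kinase gene (-0.37, SE 0.10, limma adjusted p = 0.0392), and the list median was -0.18. Mapk9 lost its call without KO 1, KO 3, KO 6 or any WT library but WT 4 (adjusted p up to 0.0986). Of 11 genes of AMP deamination and the purine nucleotide cycle none was called by limma or voom and 5 passed an unadjusted p of 0.05, and Ampd1, the main deaminase gene of adult muscle, gave -0.31 (adjusted p = 0.133, and -0.19 after quantile normalization) beside the 0.19 of Ampd3. Of 17 genes for Igfn1 partners and Z-disc proteins none was called by limma or voom and 4 passed an unadjusted p of 0.05, and Obsl1, an obscurin relative, had the smallest p (0.44, adjusted p = 0.0703). Over all 9 lists 13 of 110 tested genes were called, 8 higher and 5 lower, against 6.19% of all tested genes, with 3.12% higher and 3.08% lower. The lists were chosen with earlier results of these data known. The count of called list genes was 26 without KO 2. It fell to between 2 and 5 without KO 1, KO 3, KO 6 or any WT library but WT 4.

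**Figure D4:**
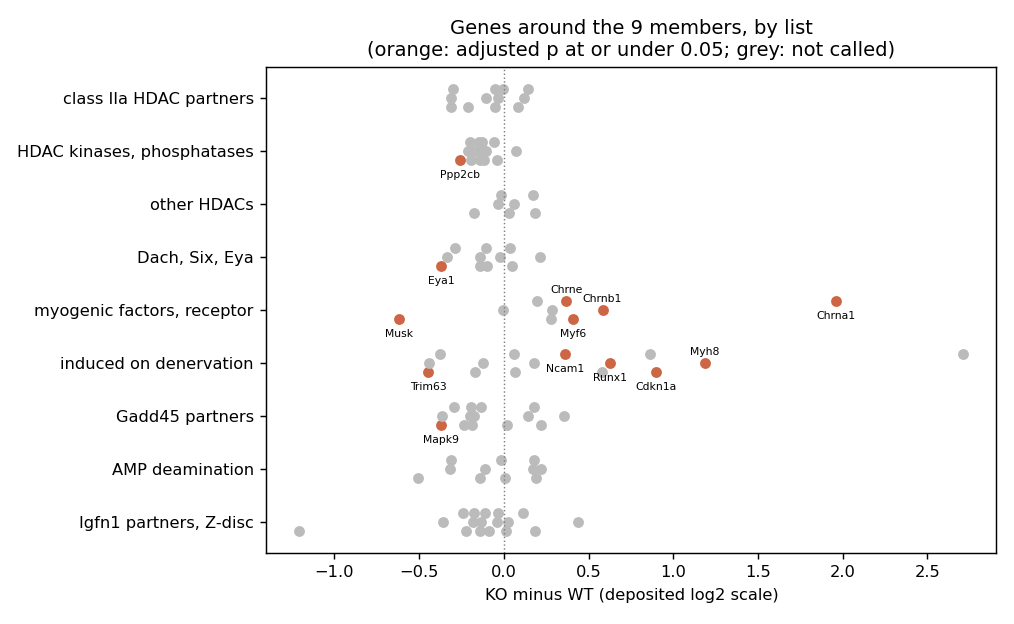
Difference KO minus WT on the deposited log2 scale (x axis) for every tested gene of the 9 lists (y axis), 1 point a gene, with called genes in orange and named. Most calls stand in the lists of myogenic factors with the receptor and of genes induced on denervation, with 5 each. The lists were chosen with earlier results of these data known. Chrna1 lies farthest right among the called genes at 1.96. The grey point beyond it is Sln at 2.71, which was not called.

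The genes most like Gadd45a over the 12 libraries were Pld2, a phospholipase D gene (Pearson's r = 0.99), Tnfrsf23, a TNF receptor family gene (0.97), and Tspo, which encodes a protein of the outer mitochondrial membrane (0.97). They kept r of 0.95, 0.91 and 0.90 after the group means were removed. The nearest to Gadd45g were Ctnna3 (0.92), Slx4 (0.90) and Zfp9 (0.90), which gave 0.82, 0.68 and 0.66 within groups. The nearest to Hdac5 were Cbfb (0.94), Fgfbp1 (0.93) and Zwint (0.93), with 0.77, 0.74 and 0.74 within groups. For genes without a call, the first in rank were Tssc1 for Hdac4 (0.89), Btbd1 for Hdac9 (0.83), Prox2 for Gadd45b (0.88), Ninl for Ampd3 (0.91) and Man2b1 for Igfn1 (0.89). These are the highest values among all tested genes with an established symbol, over 12 libraries that share the genotype difference, and they are given as a description.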

How the data were processed

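Poly-A RNA of 12 gastrocnemius muscles was sequenced in paired ends. The authors deposited 1 table of log2 values, 1 per gene and library. Trimming, alignment and counting tools (fastp, STAR, featureCounts) and mm10 stand in the submitters' processing notes. Versions, annotation and the transformation were not given in the sources used here. The columns have 1 common floor, at which 6474 genes stand in every library, the shape of a variance-stabilizing transformation, so differences between low values are compressed.

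The closed form of that transformation was inverted, and the value of 1 read was found in each library by a grid search. Of the low values, 90.0% to 93.4% then fell within 0.1 of a whole number. These estimated reads served the filter, depth, levels per length and some alternatives. The deposited log2 values were fitted with limma 3.58.1 (R 4.3.3) with genotype as the only term, a variance trend and robust moderation. The exact permutation tests run over libraries, each a separate mouse. On simulated data of the 12227 genes the fit recovered 81% of 100 genes changed by 0.5 and 98% of 100 changed by 1, with 5 false calls. Each gene was simulated independently, without shifts shared by the genes of a library, so these rates need not hold for the real data.

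The members and gene lists were chosen with earlier results of these data known. Named genes are the members, Ank2, up to 4 called genes of each list by p (or the 1 of smallest p), and the 3 tested genes most correlated with each member; Musk, Myh8, Myog, Dach1 and Chrng were added after their values were seen. Lists were counted without set tests. Lengths, each the union of all annotated exons of a gene, and positions come from GENCODE M21 and promoters from RefSeq. Alternatives covered filters, scalings, variance models, the scale of the values, a replicate block and the omission of each library. T cell markers had no gene past the filter. In the other marker lists, 1 of 6 tested endothelial, 1 of 5 smooth muscle and 1 of 2 adipocyte genes fell. Of all tested genes 3.08% fell. Negative estimates numbered 5, 5 and 2 in these 3 lists. At an unadjusted limma p of 0.05, 5, 3 and 2 of their genes passed, against 26.0% of all tested genes. Fibro-adipogenic, macrophage and fibre markers had no call, with 0, 2 and 2 genes at that unadjusted p. Intervals of the fit are for the difference of the group means, with an error taken from the spread between mice.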

Additional observations from a re-analysis of the deposited data

Results flagged for a closer look

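In 4 of 50 gene and genotype groups of 6 libraries examined, 1 library stood apart from the other 5 by a gap past Dixon's 95% critical value; chance gives about 1 in 20. Among the 9 genes, Igfn1 was 10.61 in WT 5, against 7.59 to 8.68 in the other WT libraries, and Hdac9 was 8.06 in WT 2, against 7.71 to 7.81. Among the surrounding genes, Eya1 was 9.00 in WT 1, below the others at 9.14 to 9.19, and Mapk9 was 10.41 in WT 2, above the others at 10.10 to 10.21.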

How the results depend on the processing

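Of the 9 genes, Hdac4, Gadd45a, Ampd3 and Igfn1 kept direction and side of the threshold under all 10 alternatives and all 12 omissions. Dach2 kept its direction under the 2 alternatives without a filter and the 12 omissions, and with a filter it gave no value. Its p over the omissions is the exact permutation p, not adjusted over genes. Only the 2 alternatives without a filter gave it an adjusted p. Over the omissions the changes ran from 0.03 to 0.14 for Hdac4, -0.24 to -0.20 for Hdac5, -0.098 to 0.031 for Hdac9, 1.00 to 1.26 for Gadd45a, -0.16 to 0.02 for Gadd45b, -0.97 to -0.77 for Gadd45g, 0.15 to 0.25 for Ampd3, 0.92 to 1.62 for Igfn1 and -0.88 to -0.63 for Dach2. Library weights gave 1173 called genes, put Hdac5 past the threshold (-0.23, adjusted p = 0.0349) and turned Hdac9 to 0.0068; voom turned Hdac9 to 0.0031. Hdac9 was 0.031 without WT 2, and Gadd45b, otherwise negative, was 0.023 without KO 2. The cause was not tested. Called genes ran from 194 to 1517 over the omissions and from 625 to 1173 under the other settings, and called list genes from 2 to 26 over the omissions. Quantile normalization gave 494 rises and 367 falls, median centring 404 and 310, estimated reads without a filter 410 and 280, and the values as deposited 381 and 376.

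The replicate numbers are not known to pair the mice. Deviations of same-numbered libraries correlated from -0.36 to 0.29, and 1 of 6 WT libraries correlated best with its own number. Such correlations cannot exclude a shared litter or cage. With the number as a replicate block 813 genes were called, and Gadd45g, at the same change of -0.89, had an adjusted p of 0.0627. For the 15 surrounding genes and Ank2, 266 of the refits kept the call status, 83 lost a call, 3 gained one and none reversed. Musk and Myh8, which were added later, are outside this tally. Musk lost its call in 10 omissions and 4 other settings, and Myh8 in 11 omissions and 2 other settings. Dach2 rests on few reads, and changes of its size at that depth carry counting error that the values do not show.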
